A study of Mus musculus with 15 samples.

Results

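CD73 (Nt5e), CD39 (Entpd1) and 8 further genes that make, sense or clear extracellular adenosine and ATP were followed across 15 bulk RNA sequencing libraries of mouse CD4 T cells. The 10 genes were taken by name from the 27179 genes of the count table. All 10 were among the 12591 genes that passed the filter on low counts. They were chosen after earlier results on these same libraries were known, so their differences between conditions are given as descriptions, with standard errors and no p-values. Where a member is said to pass or not to pass the threshold of the model over all genes, that too describes the choice and is no independent test.

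Naive CD4 T cells were cultured for 3.5 days on plate-bound antibodies against CD3 and CD28 under Th1, Th17 or Tfh conditions, and the cells were then sorted, with 5 libraries for each condition. By its title, the series concerns TGF-β and c-Maf in Tfh as against Th17 differentiation. Every library carried the same genotype, B6.Cg-Ifngtm3.1Lky-Il17atm1.1Lky, which has reporter alleles at Ifng and Il17a, so no group lacked the reporters. Th1 cells were sorted as IFNg+ and Tfh cells as CXCR5+ IL-17A-. The sources used here give neither the gate for Th17 cells nor the cytokines of each condition nor the age of the mice. No label says that the 5 libraries of a condition came from separate mice or cultures, so the spread between them may be partly technical. The Tfh cells were made in culture, and they are called Tfh here by their label.

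Extracellular ATP is released by stressed or activated cells and opens P2X receptor channels. CD39 removes phosphates from ATP and ADP to leave AMP, CD73 turns AMP into adenosine, and adenosine acts on A2 receptors, which raise cyclic AMP and restrain T cells. Adenosine is cleared by uptake through equilibrative transporters and is then deaminated by Ada or phosphorylated by Adk.

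Libraries held 4871468 to 25200382 counts in genes, with a median of 10501581, and Tfh replicate 1 was the shallowest. Levels are given as CPM, counts scaled to a common library size by TMM factors that adjust for RNA composition. All 5 CD4 T cell markers had counts in every condition, and their summed level was between 2069 and 5520 CPM in each library. The 5 B cell markers summed to at most 2.59 CPM, with Pax5 at 0 in every library, and the 6 myeloid and dendritic markers to at most 3.09 CPM. Of the 2 CD8 T cell markers, Cd8a averaged 5.52 CPM in Th1, 0.259 CPM in Th17 and 0 CPM in Tfh, and Cd8b1 averaged 11.5, 10.3 and 7.34 CPM, with counts in all 15 libraries. Their sum was 7.29 to 26.1 CPM in Th1, 6.19 to 16.0 CPM in Th17 and 5.22 to 11.3 CPM in Tfh. Library composition also varied with base content: across 8610 genes, the Spearman correlation between a gene's transcript GC content and its deviation in a library from the condition mean ran from -0.75 to 0.79.

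The bases upstream of the start sites of 4 members are shown because, against Th1, Nt5e and Acpp were higher in Th17 and Tfh while Entpd1 and P2rx7 were lower. In Tfh against Th17 all 4 were higher. The sequences are from RefSeq on GRCm38.p6, are written 5′ to 3′ on the gene's strand, and hold the 250 bases that end just before the start. Capitals mark CAGAC or its reverse complement GTCTG, the SMAD box bound by the factors that TGF-β activates, searched on both strands. Of the 10 members, 9 had a window, the exception being Adora2a. Nt5e lies at chr9:88327359-88327608 (+), Acpp at chr9:104337723-104337972 (-), Entpd1 at chr19:40612116-40612365 (+) and P2rx7 at chr5:122643677-122643926 (+).
Nt5e: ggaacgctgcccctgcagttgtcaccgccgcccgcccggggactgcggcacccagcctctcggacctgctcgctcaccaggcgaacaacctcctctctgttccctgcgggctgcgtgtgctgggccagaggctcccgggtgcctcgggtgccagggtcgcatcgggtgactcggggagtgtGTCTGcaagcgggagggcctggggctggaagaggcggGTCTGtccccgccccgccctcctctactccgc
Acpp: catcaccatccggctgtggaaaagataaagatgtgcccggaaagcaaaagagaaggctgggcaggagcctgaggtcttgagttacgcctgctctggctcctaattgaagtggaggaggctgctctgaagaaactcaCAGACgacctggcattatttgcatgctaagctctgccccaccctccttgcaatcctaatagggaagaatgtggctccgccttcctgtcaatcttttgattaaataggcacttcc
Entpd1: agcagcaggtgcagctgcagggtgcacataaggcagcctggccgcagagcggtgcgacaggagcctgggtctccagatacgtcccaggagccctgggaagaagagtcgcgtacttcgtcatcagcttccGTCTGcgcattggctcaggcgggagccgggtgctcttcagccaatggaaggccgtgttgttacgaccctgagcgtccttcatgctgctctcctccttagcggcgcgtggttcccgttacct
P2rx7: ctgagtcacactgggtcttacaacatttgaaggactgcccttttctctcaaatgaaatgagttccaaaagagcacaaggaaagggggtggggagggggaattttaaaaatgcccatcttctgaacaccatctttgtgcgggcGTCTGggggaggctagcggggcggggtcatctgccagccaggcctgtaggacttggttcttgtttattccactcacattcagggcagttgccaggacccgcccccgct
The SMAD box letters occurred 2 times upstream of Nt5e, with first bases at -69 and -32 from the start, and 1 time upstream of Acpp (-114), Entpd1 (-121) and P2rx7 (-108). The same letters occurred in 42.2% of the 32851 windows of this length in the table, so they are common in such windows. TGCTGA and its reverse complement TCAGCA, the core of the site bound by MAF factors, occurred in none of these 4 windows and in 16.1% of all windows. The Nt5e window was 72.0% GC with 21 CG dinucleotides and the Entpd1 window 62.4% GC with 18, against 50.4% and 5 for Acpp and 53.6% and 6 for P2rx7. The median of all windows was 52.4% GC with 6 CG dinucleotides. Both Entpd1 and P2rx7 have a further start site in the table, at chr19:40659520-40659769 and chr5:122650133-122650382 for the upstream windows. There the SMAD box letters occurred 1 time for Entpd1 (-11) and 2 times for P2rx7 (-239 and -15), as many as for Nt5e, so the counts depend on the start site taken. Of the other members with a window, Ada, P2rx4, Adora2b and Slc29a1 also had these letters in at least 1 window, and Adk did not. Members differ in their number of windows, up to 8 for Slc29a1, so counts of genes cannot be set beside the share of windows.

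Of the members, both genes for enzymes that make adenosine from AMP, Nt5e and Acpp, were far higher in Th17 and Tfh than in Th1. The CD39 gene was highest in Th1, as were the adenosine receptor gene Adora2b and the ATP receptor gene P2rx7. Between Tfh and Th17 the differences were smaller. Against Th17, Tfh libraries passed an edgeR adjusted p threshold of 0.05 for 5 of the 10 members, 4 higher and 1 lower, where 16.8% of all tested genes passed, 6.8% higher and 9.98% lower. Against Th1, Tfh passed for 10 members, 4 higher and 6 lower (49.3% of all genes, 24.1% higher and 25.2% lower), and Th17 passed for 9, 3 higher and 6 lower (36.9% of all genes, 19.0% higher and 17.8% lower). The libraries of the compared conditions did not overlap for 4 members in Tfh against Th17, 3 higher and 1 lower (14.5% of all genes, 5.74% higher and 8.72% lower). They did not overlap for 8 members in Tfh against Th1, 3 higher and 5 lower (34.3%, 16.1% and 18.2%), and for 8 in Th17 against Th1, 3 higher and 5 lower (28.8%, 14.5% and 14.3%). The comparisons share libraries, and the members were chosen with these contrasts known, so nothing is read from their shares. The median log2 difference of the members was 0.09 for Tfh against Th17, -0.74 for Tfh against Th1 and -0.77 for Th17 against Th1, beside -0.01, -0.01 and 0.03 over all tested genes. Fewer cells that express a gene and less of its RNA in each cell cannot be told apart in bulk libraries.

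**Figure D1:**
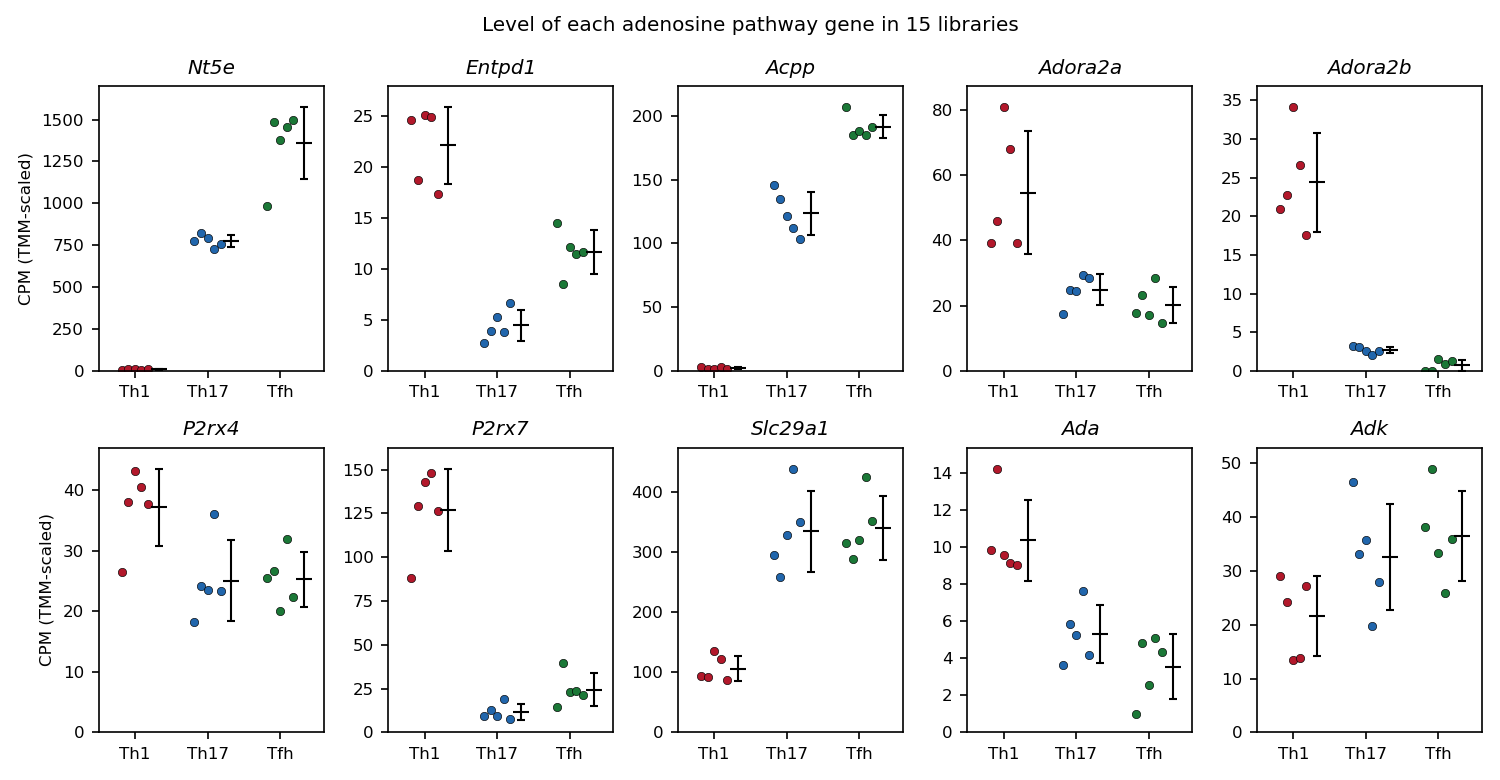
Level of each of the 10 genes in every library (CPM, linear axis from 0, its scale set for each gene), with 1 panel for each gene, points for the 5 libraries of Th1, Th17 and Tfh and bars at the mean ± SD. Nt5e and Acpp sit near the bottom in Th1 and far higher in Th17 and Tfh, while Adora2b and P2rx7 run the other way.

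Nt5e encodes CD73, the surface 5′-nucleotidase that releases adenosine from AMP (Entrez 23959, chromosome 9, 88327609 to 88372089, + strand). In Th1 its level in replicates 1 to 5 was 6.17, 9.48, 9.54, 7.01 and 10.9 CPM. In Th17 it was 773, 824, 793, 725 and 757 CPM, and in Tfh 983, 1483, 1378, 1458 and 1495 CPM. The 3 conditions did not overlap, and Tfh replicate 1 stood well below the other 4 Tfh libraries. The mean was 8.62 ± 1.96 CPM in Th1, 775 ± 37.3 CPM in Th17 and 1359 ± 215 CPM in Tfh (SD, n = 5 each). The Tfh level was above Th17 by a log2 difference of 0.81 ± 0.14 (SE), a 1.76-fold difference, and 7.29 ± 0.19 above Th1, 156-fold. Th17 was above Th1 by 6.48 ± 0.18, 89.0-fold. Without Tfh replicate 1 the difference from Th17 was 0.91.

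Acpp, a transmembrane acid phosphatase that also hydrolyses extracellular AMP, had the same order of conditions (Entrez 56318, chromosome 9, 104288240 to 104337722, - strand). Its levels in Th1 were 2.94, 1.55, 1.82, 2.86 and 1.53 CPM. In Th17 they were 146, 135, 122, 112 and 104 CPM, and in Tfh 207, 185, 189, 185 and 192 CPM. Every Tfh library was above every Th17 library and every Th17 library above every Th1 library. Its log2 difference was 0.63 ± 0.15 for Tfh against Th17 (1.55-fold), 6.51 ± 0.20 for Tfh against Th1 (91.3-fold) and 5.88 ± 0.20 for Th17 against Th1 (58.9-fold). The 2 genes lie on the same chromosome but not beside each other.

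Entpd1 encodes CD39, the enzyme that supplies AMP to CD73, and its order of conditions was different (Entrez 12495, chromosome 19, 40612366 to 40741602, + strand). In Th1 it measured 24.5, 18.7, 25.1, 24.8 and 17.4 CPM, in Th17 2.69, 3.92, 5.27, 3.77 and 6.62 CPM, and in Tfh 14.5, 8.48, 12.1, 11.5 and 11.7 CPM. Th1 was highest, Tfh intermediate and Th17 lowest, with no overlap between any of the conditions. Tfh was above Th17 by 1.37 ± 0.24 on the log2 scale (2.59-fold) and below Th1 by a log2 difference of -0.93 ± 0.23 (1.90-fold). Th17 differed from Th1 by -2.30 ± 0.24 (4.92-fold lower).

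Levels were divided by exon length in kilobases (CPM per kb), which allows them to be set side by side between genes. Nt5e RNA was above Entpd1 RNA in Th17 and Tfh and not in Th1. The ratio of Nt5e to Entpd1 within a library ran from 0.163 to 0.407 in Th1, from 74.2 to 186 in Th17 and from 44.0 to 114 in Tfh. Per kb of the longest transcript these ratios were 1.63 times as large, at 0.266 to 0.663, 121 to 303 and 71.7 to 185. So with either length, in every Th1 library Entpd1 was the higher of the pair, and in every Th17 and Tfh library Nt5e was. Nt5e stayed above Acpp in all 15 libraries, by a ratio of 1.79 to 6.06 in Th1, 4.51 to 6.23 in Th17 and 4.05 to 6.83 in Tfh. Foxp3, the factor that defines regulatory T cells, which carry both CD39 and CD73, averaged 0.483 ± 0.669 CPM in Th1, 7.20 ± 2.26 CPM in Th17 and 13.02 ± 4.57 CPM in Tfh (SD, n = 5). The 6 regulatory T cell markers summed to 6045 to 6924 CPM in Th1, 4001 to 4505 CPM in Th17 and 2088 to 2193 CPM in Tfh, most of it from Il2ra. None of the others had the order of Foxp3 over the conditions. In Th1, Th17 and Tfh, Ikzf2 averaged 12.55, 3.49 and 3.75 CPM, and Ikzf4 64.3, 36.1 and 32.4 CPM. Nrp1 averaged 51.3, 37.7 and 23.7 CPM, Il2ra 5704, 2857 and 1391 CPM, and Ctla4 753, 1195 and 684.5 CPM. The part of regulatory T cells in the Entpd1 and Nt5e levels was not tested.

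Adora2a and Adora2b encode the A2 class of adenosine receptors, both of which raise cyclic AMP. Adora2a (Entrez 11540, chromosome 10, 75316877 to 75334792, + strand) measured 39.2, 45.8, 80.9, 68.0 and 39.3 CPM in Th1, 17.4, 24.8, 24.5, 29.3 and 28.6 CPM in Th17, and 17.8, 23.3, 17.2, 28.5 and 14.8 CPM in Tfh. Every Th1 library was above every library of the other conditions, and Th17 and Tfh overlapped. On the log2 scale the difference was -1.43 ± 0.24 for Tfh against Th1 (2.696-fold lower), -1.13 ± 0.23 for Th17 against Th1 (2.20-fold lower) and -0.30 ± 0.23 for Tfh against Th17, which did not pass. Th1 replicates 3 and 4 were the highest, and these are also the Th1 libraries in which genes of high GC content were high. Adora2a has a transcript GC content of 59.2%, the highest of the members, and whether this set its spread was not tested. With a correction for GC content, added after seeing the data, its standard error for Th17 against Th1 went from 0.23 to 0.16 and the difference to -1.09. The correction was fitted to deviations from the condition means in these same libraries, so a smaller standard error is partly built in.

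Adora2b (Entrez 11541, chromosome 11, 62248984 to 62266452, + strand) differed by more between conditions than Adora2a. It measured 20.9, 22.7, 34.1, 26.7 and 17.5 CPM in Th1 and 3.16, 3.07, 2.63, 2.07 and 2.61 CPM in Th17. In Tfh it measured 0, 0, 1.55, 0.896 and 1.28 CPM, from 0, 0, 19, 9 and 13 counts. All conditions were apart, and Tfh replicates 1 and 2 held no count, where 3 counts would have been 0.58 CPM in the shallowest library. Its differences on the log2 scale were -4.83 ± 0.48 for Tfh against Th1 (28.5-fold lower), -3.17 ± 0.43 for Th17 against Th1 (9.01-fold lower) and -1.66 ± 0.48 for Tfh against Th17 (3.16-fold lower). The last of these was -2.38 with limma-voom. It no longer passed with only Th17 and Tfh in the model. Because 2 Tfh libraries were at 0, the fitted folds to Tfh depend on the model and are not lower bounds. The per-length ratio of Adora2a to Adora2b was 1.13 to 1.54 in Th1, 3.33 to 8.52 in Th17 and 6.66 to 19.2 in the 3 Tfh libraries with Adora2b counts.

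P2rx7 and P2rx4 encode ATP-gated channels, and P2X7 needs high ATP and can lead to cell death in T cells. The 2 genes lie side by side on chromosome 5, with P2rx7 (Entrez 18439, 122643927 to 122692336, + strand) ending 15181 bases before P2rx4 (Entrez 18438, 122707518 to 122729739, + strand). P2rx7 measured 88.3, 129, 143, 148 and 127 CPM in Th1, 9.60, 12.7, 9.52, 19.0 and 7.41 CPM in Th17, and 14.3, 39.8, 22.8, 23.6 and 21.2 CPM in Tfh. Th1 stood apart from both other conditions, whose ranges met because Tfh replicate 1 fell within the Th17 range. As log2 values the differences were -2.38 ± 0.26 for Tfh against Th1 (5.21-fold lower), -3.45 ± 0.28 for Th17 against Th1 (10.9-fold lower) and 1.07 ± 0.26 for Tfh against Th17 (2.09-fold higher).

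P2rx4 varied far less. Its levels were 26.5 to 43.2 CPM in Th1 (mean 37.2 ± 6.35), 18.2 to 36.1 CPM in Th17 (25.03 ± 6.63) and 20.01 to 32.0 CPM in Tfh (25.3 ± 4.54; SD, n = 5 each). All 3 conditions overlapped, and the log2 difference was -0.56 ± 0.19 for Tfh against Th1, -0.57 ± 0.19 for Th17 against Th1 and 0.01 ± 0.19 for Tfh against Th17. The pass for Tfh against Th1 was lost without Tfh replicate 3 (-0.51). That for Th17 against Th1 was lost without Th1 replicate 3 (-0.54), Th17 replicate 1 (-0.47) or Th17 replicate 2 (-0.55). Within a library the per-length ratio of P2rx7 to P2rx4 was 3.90 to 4.31 in Th1, 0.373 to 0.623 in Th17 and 0.660 to 1.77 in Tfh. So P2rx7 was the higher neighbour in all 5 Th1 libraries and P2rx4 in all 5 Th17 libraries. Exons of the P2rx7 gene overlap those of the microRNA gene Mir8115 by 119 bases, and whether reads there were shared was not tested.

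**Figure D2:**
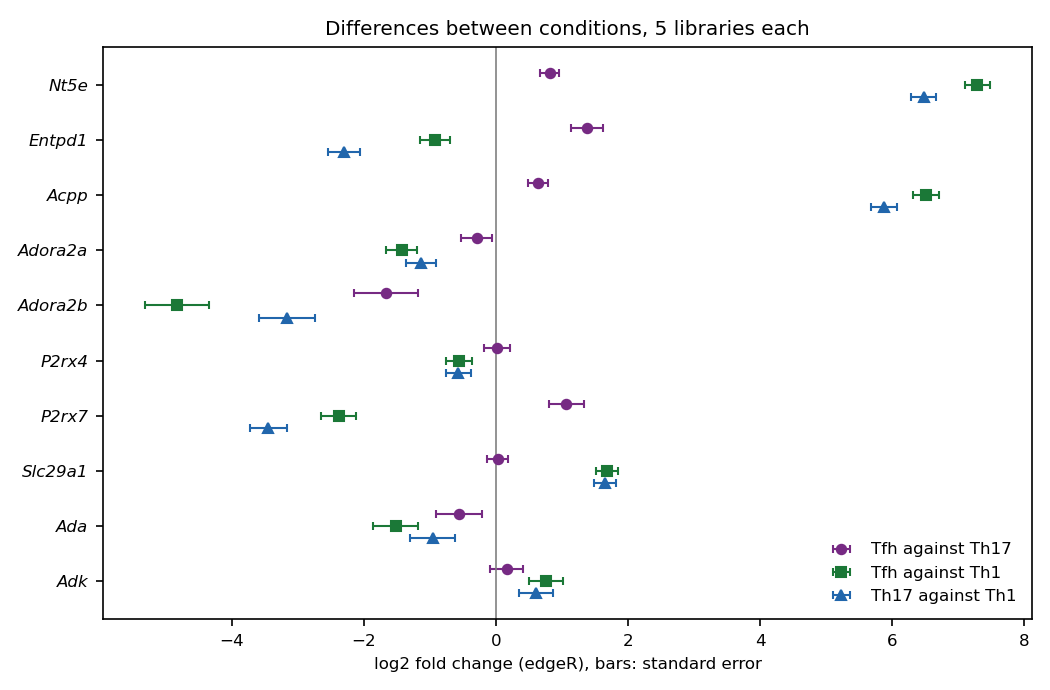
Log2 difference of each member between conditions, with points for the estimates and bars of 1 standard error from the edgeR model on 5 libraries a condition, for Tfh against Th17, Tfh against Th1 and Th17 against Th1. Nt5e and Acpp lie above 5 on the log2 scale in both comparisons with Th1, while the Tfh to Th17 differences run from -1.66 (Adora2b) to 1.37 (Entpd1).

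Slc29a1 encodes ENT1, the equilibrative transporter that takes adenosine into cells (Entrez 63959, chromosome 17, 45585200 to 45599618, - strand). It measured 94.2, 92.7, 135, 122 and 87.5 CPM in Th1, 296, 259, 329, 439 and 350 CPM in Th17, and 315, 288, 321, 426 and 352 CPM in Tfh. Th1 was apart from both others, and Th17 and Tfh overlapped almost fully. Its level was higher by a log2 difference of 1.68 ± 0.16 for Tfh against Th1 (3.20-fold) and 1.65 ± 0.16 for Th17 against Th1 (3.15-fold), and by 0.03 ± 0.16 for Tfh against Th17, which did not pass. Replicate 4 was the highest library in Th17 and Tfh, and these libraries had GC correlations of 0.79 and 0.69. Whether GC content set this spread was not tested. An antisense transcript, Gm17080, shares 275 exon bases with Slc29a1, and the sources used here do not say whether counting used strand.

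Ada, which deaminates adenosine to inosine, and Adk, which phosphorylates it to AMP, are the intracellular routes by which it is cleared. Ada (Entrez 11486, chromosome 2, 163726571 to 163750239, - strand) measured 9.81, 14.2, 9.58, 9.13 and 9.03 CPM in Th1, 3.63, 5.82, 5.27, 7.63 and 4.18 CPM in Th17, and 0.967, 4.80, 2.53, 5.08 and 4.35 CPM in Tfh. Th1 libraries were above all others, and Th17 and Tfh overlapped. The lowest value, Tfh replicate 1, came from 5 counts. The log2 difference was -1.52 ± 0.35 for Tfh against Th1 (2.87-fold lower), -0.96 ± 0.34 for Th17 against Th1 (1.95-fold lower) and -0.56 ± 0.35 for Tfh against Th17, which did not pass. The pass for Th17 against Th1 was lost without Th1 replicate 2 (-0.82) and without Th17 replicate 1 (-0.85), 3 (-0.998) or 5 (-0.93).

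Adk (Entrez 11534, chromosome 14, 21052574 to 21448569, + strand) measured 29.2, 24.3, 13.5, 13.8 and 27.2 CPM in Th1, 46.5, 33.2, 35.8, 19.8 and 28.0 CPM in Th17, and 38.1, 49.0, 33.4, 26.0 and 36.0 CPM in Tfh. All 3 conditions overlapped. It differed by 0.76 ± 0.26 on the log2 scale for Tfh against Th1, 0.60 ± 0.26 for Th17 against Th1 (not passed) and 0.16 ± 0.25 for Tfh against Th17. The pass for Tfh against Th1 was lost without Th1 replicate 3 (0.61), Th1 replicate 4 (0.60) or Tfh replicate 2 (0.61). Adk has the lowest transcript GC content of the members, 37.5%, and its lowest libraries, Th1 replicates 3 and 4 and Th17 replicate 4, were those with the highest GC correlations. Deviations from the condition mean correlated with the library GC correlations at -0.945 for Adk, 0.922 for Slc29a1 and 0.782 for Adora2a. The value was 0.693 for P2rx4 (48.3% GC), 0.491 for Entpd1 (44.7%) and 0.045 for Ada (53.8%). It was 0.247 for Adora2b, 0.178 for P2rx7, -0.13 for Nt5e and -0.18 for Acpp. The cause was not tested. With the GC correction the standard error of Adk for Th17 against Th1 went from 0.26 to 0.13, with the difference at 0.62, which then passed. As that correction was fitted to these same libraries, nothing is read from the pass. Per kb of exon, the ratio of Adk to Ada within a library was 0.330 to 0.707 in Th1, 0.609 to 3.01 in Th17 and 1.20 to 9.25 in Tfh, so Adk was above Ada in 0, 4 and 5 of the 5 libraries. The order of this pair depended on the length used: per kb of the longest transcript the ratios were 1.69 times as large, 0.560 to 1.20, 1.03 to 5.10 and 2.04 to 15.7, and Adk was above Ada in 2, 5 and 5 libraries.

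On the per-length scale the most abundant member was Slc29a1 in Th1, with a mean of 26.5 CPM per kb, and Nt5e in Th17 and Tfh, with 90.0 and 158 CPM per kb. The order in Th1 was Slc29a1, P2rx7, Adora2a, Adora2b, P2rx4, Ada, Entpd1, Adk, Nt5e and Acpp. The libraries of neighbours in that order did not overlap between Adora2b and P2rx4, Ada and Entpd1, Adk and Nt5e, and Nt5e and Acpp, and overlapped between the rest. In Th17 it was Nt5e, Slc29a1, Acpp, Adora2a, Adk, P2rx4, Ada, P2rx7, Adora2b and Entpd1, where the neighbours from Adk to Entpd1 overlapped, as did Nt5e and Slc29a1. In Tfh it was Nt5e, Slc29a1, Acpp, Adora2a, Adk, P2rx7, P2rx4, Entpd1, Ada and Adora2b, and those from Adora2a to P2rx4 overlapped, as did Entpd1, Ada and Adora2b. Per kb of the longest transcript the Tfh order changed for 4 of them, with Adk at rank 4, Adora2a at 5, P2rx4 at 6 and P2rx7 at 7, and the Th1 and Th17 orders did not change. Acpp went from last in Th1, at 0.292 CPM per kb, to the third in the other conditions, at 16.9 and 26.1 CPM per kb. Entpd1, at 3.96 CPM per kb in Th1, was last in Th17 at 0.798 and at 2.09 in Tfh.

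**Figure D3:**
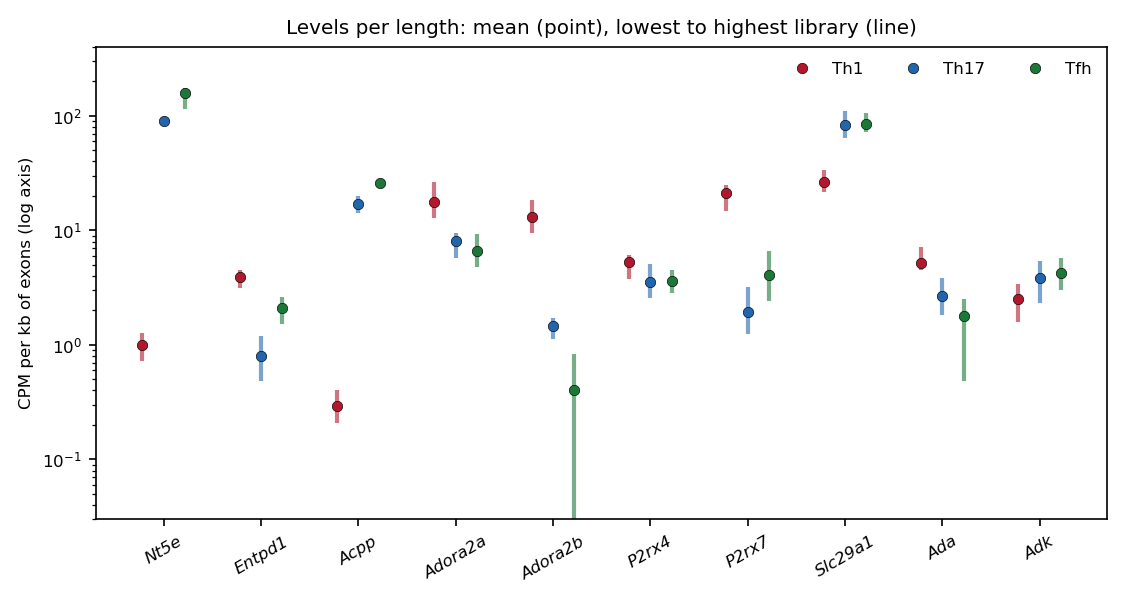
Mean level of the 10 members in CPM per kilobase of exon (log axis that starts at 0.03, so the lower end of the Adora2b range in Tfh, where 2 libraries were at 0, is cut off there), with bars from the lowest to the highest of 5 libraries, for Th1, Th17 and Tfh. Nt5e is among the lowest members in Th1 and the highest in Th17 and Tfh.

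Of 88 other purinergic genes listed in 7 groups, 63 passed the filter. These groups were also chosen with earlier results on these same libraries known. Nothing is therefore read from their shares, and the p-values are no independent test of the groups. Tfh differed from Th17 in 11 of them (4 higher, 7 lower), 17.5% against 16.8% of all genes. Tfh differed from Th1 in 46 (22 higher, 24 lower), 73.0% against 49.3%, and Th17 from Th1 in 41 (21 higher, 20 lower), 65.1% against 36.9%, by the edgeR quasi-likelihood test with Benjamini-Hochberg adjustment. The median log2 difference of the 63 genes was -0.04, -0.20 and -0.17 in the 3 comparisons in that order. The group of other ectonucleotidases also holds surface enzymes of other kinds, such as Dpp4 and Art2b. Among its 6 tested genes, 2 were higher and 3 lower in both comparisons with Th1, 83.3% in each. Of all genes, 49.3% passed for Tfh and 36.9% for Th17. Cd38, an NAD-consuming ectoenzyme, rose with Th17 and Tfh from 28.3 ± 5.41 CPM in Th1 to 93.9 ± 20.9 and 99.8 ± 19.0 CPM (SD, n = 5; log2 1.73 ± 0.19, adjusted p = 5.55e-07, and 1.82 ± 0.19, adjusted p = 1.93e-07). Enpp2, or autotaxin, was lower than in Th1 (37.3 CPM) in Th17, by a log2 difference of -3.21 ± 0.34 (adjusted p = 5.13e-07), and in Tfh, by -8.24 ± 0.52 (302.5-fold, adjusted p = 2.61e-10), where 2 libraries held 5 counts in all; without Tfh replicate 4 the fold was 537. Bst1, another NAD ectoenzyme, was at 5.29 CPM in Th1, 0.227 CPM in Th17 and 0.113 CPM in Tfh (adjusted p = 0.000228 and 5.2e-05 against Th1), and its Tfh counts came from replicate 2 alone. Its fitted log2 difference for Tfh against Th1 was -5.63, and -8.88 without that replicate, a value that then depends on the model because the other 4 Tfh libraries were at 0.

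Of the 8 intracellular NTPDase and 5′-nucleotidase genes tested, 5 were higher and 1 lower in Tfh than in Th1, 75.0% against 49.3% of all genes. In Th17 against Th1, 5 passed, each of them higher, 62.5% against 36.9% of all genes (19.0% higher and 17.8% lower). Nt5c2, a cytosolic nucleotidase, rose, at 61.1 CPM in Th1, 151 CPM in Th17 and 171 CPM in Tfh (log2 1.30 ± 0.11, adjusted p = 2.09e-08, and 1.49 ± 0.11, adjusted p = 2.24e-09). Nt5c3b, which removes phosphate from 7-methyl-GMP, was at 54.3, 105 and 102 CPM in the same order (adjusted p = 0.000626 and 0.000613 against Th1). Between Tfh and Th17, edgeR called 0 of the 8, where 16.8% of all tested genes passed. Of the 8, 0 had an unadjusted p under 0.05, and DESeq2 and limma-voom called 0 as well. With so few genes, nothing is read from this. Of 13 purine salvage and breakdown genes, 2 were higher and 8 lower in Tfh than in Th1, 76.9% against 49.3% of all genes. Xdh, which turns hypoxanthine into uric acid, fell from 122 ± 16.5 CPM in Th1 to 1.88 ± 0.533 CPM in Th17 and 1.84 ± 1.17 CPM in Tfh (adjusted p = 1.45e-10 and 9.81e-11), a log2 difference of -5.99 ± 0.35 and -5.97 ± 0.35. Hprt, which salvages hypoxanthine, was lower in Tfh than in Th17 by -0.93 ± 0.13 (adjusted p = 6.11e-05), at 80.3 against 153 CPM. Ahcy, which hydrolyses S-adenosylhomocysteine to adenosine, was at 104 ± 29.5 CPM in Th1, 39.3 ± 5.17 CPM in Th17 and 35.0 ± 13.7 CPM in Tfh (adjusted p = 8.04e-05 and 1.53e-05 against Th1). For Pnp, which cleaves inosine, Tfh exceeded Th1 by 1.82-fold (adjusted p = 5.46e-05) and Th17 exceeded Th1 by 2.02-fold (edgeR adjusted p = 1.48e-05). However, its near-identical neighbour Pnp2 could share its reads.

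Among 4 tested genes listed by name as other adenosine and P2 receptors, 2 were lower in Tfh than in Th1, where 49.3% of all genes passed (24.1% higher and 25.2% lower). P2rx3, an ATP-gated channel best known in sensory neurons, was at 19.0 ± 2.80 CPM in Th1, 0.194 ± 0.292 CPM in Th17 and 0.870 ± 0.634 CPM in Tfh (log2 -6.43 ± 0.61, adjusted p = 1.18e-07, and -4.56 ± 0.53, adjusted p = 1.13e-06). Without Th17 replicate 5 the Th17 difference was -7.83. The P2rx3 counts summed to 1241 in Th1, 11 in Th17 and 33 in Tfh, so the fitted differences depend on the model. Of 8 tested genes for other transporters and ATP release, 4 were higher and 3 lower in Tfh than in Th1, 87.5% against 49.3% of all genes. Panx1, a channel that lets ATP out of the cell, was at 32.3 CPM in Th1, 49.0 CPM in Th17 and 58.7 CPM in Tfh (adjusted p = 0.00127 and 2.36e-05 against Th1). Slc17a9, which loads ATP into vesicles, was at 49.3, 18.1 and 20.2 CPM (adjusted p = 0.000276 and 0.000524 against Th1). Slc28a2, a concentrative nucleoside carrier, was at 16.9, 21.4 and 38.2 CPM and rose in Tfh against Th17 by 0.84 ± 0.17 (adjusted p = 0.00176), but its neighbouring copy Slc28a2b could share its reads. Gja1, a gap junction channel gene, was at 166, 86.4 and 61.8 CPM, and its Tfh to Th17 difference of -0.48 ± 0.12 (adjusted p = 0.0107) did not pass with the GC correction (-0.50, adjusted p = 0.0804).

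Of 17 genes of cyclic AMP signalling, 5 were higher and 7 lower in Tfh than in Th1, 70.6% in all against 49.3% of all tested genes (24.1% higher and 25.2% lower). Crem, a cAMP-responsive factor gene, went from 401 ± 128 CPM in Th1 to 212 ± 61.4 CPM in Th17 and 107 ± 27.6 CPM in Tfh (Tfh against Th17 -0.99 ± 0.24, adjusted p = 0.00729; Tfh against Th1 -1.91 ± 0.24, adjusted p = 3.04e-06). Pde8a, a cAMP phosphodiesterase, was 7.57-fold lower in Tfh than in Th1 (58.4 against 7.74 CPM, adjusted p = 1.3e-08). Pde3b, another such enzyme, rose in Tfh against Th1 from 120 ± 57.9 to 344 ± 108 CPM (adjusted p = 0.000571). Pde4a, of the same class, was at 12.4 ± 5.03 CPM in Th1 and 2.62 ± 1.29 CPM in Th17 (adjusted p = 0.000738). Adcy7, an adenylyl cyclase, was higher in Tfh than in Th17 by 0.55 ± 0.14 (adjusted p = 0.00948). Prkar1a, a regulatory subunit of protein kinase A, was higher in Th17 than in Th1 by 0.62 ± 0.09 (adjusted p = 1.86e-05). Its Tfh level was above Th1 by 0.73 ± 0.09 (edgeR adjusted p = 1.92e-06). Prkacb, a catalytic subunit of protein kinase A, was higher in Tfh than in Th17 by 0.39 ± 0.11 (adjusted p = 0.0176) and than in Th1 by 1.15 ± 0.11 (adjusted p = 8.97e-08). Of 7 factors reported to control CD39 or CD73, 4 passed in both comparisons with Th1, each of them higher. That is 57.1%, against 49.3% of all genes for Tfh (24.1% higher) and 36.9% for Th17 (19.0% higher). Ahr, the aryl hydrocarbon receptor, was at 22.2 ± 3.21 CPM in Th1, 408 ± 55.4 CPM in Th17 and 656 ± 84.4 CPM in Tfh (Tfh against Th1 4.89 ± 0.15, adjusted p = 2.91e-14). Smad3, a TGF-β signal carrier, was at 26.8 ± 2.85, 155 ± 22.6 and 194 ± 26.7 CPM in the same order (Tfh against Th1 2.85 ± 0.14, adjusted p = 7.9e-12). Gfi1, a repressor of CD39 and CD73 in some T cells, was at 47.9, 38.7 and 37.8 CPM and was not called in any comparison.

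**Figure D4:**
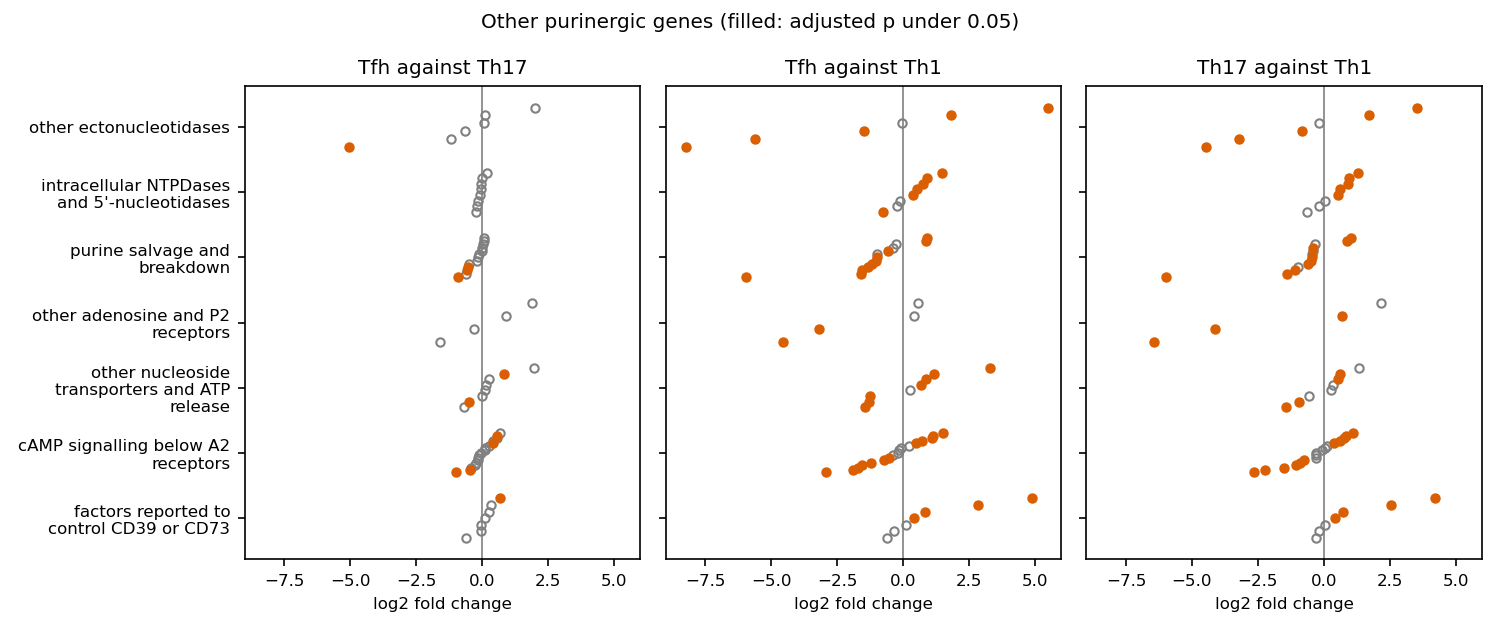
Log2 differences of the 63 other purinergic genes that passed the filter, by group, for Tfh against Th17, Tfh against Th1 and Th17 against Th1, with filled points for those past an adjusted p of 0.05 (edgeR). The spread is much wider in the comparisons with Th1, where 46 and 41 genes passed, than between Tfh and Th17, where 11 passed.

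Likeness of pattern was measured as the root mean square difference, over the 15 libraries, of log2 (CPM + 1) centred on each gene's mean, across 9183 genes. The genes closest to Nt5e were Myo3b (0.30), Gpr15 (0.36), Maf (0.40), Il1r1 (0.42) and Pou2af1 (0.43), and Acpp ranked 10 at 0.64. Myo3b averaged 0.197 CPM in Th1, 70.1 CPM in Th17 and 126 CPM in Tfh, and Maf averaged 10.7, 798 and 1630 CPM. Those closest to Entpd1 were Ddit3 (0.31), H2-Oa (0.33), Mex3a (0.38), Ikbke (0.39) and Sfi1 (0.41), and each was highest in Th1 and lowest in Th17 on average. Ddit3 averaged 76.7, 20.2 and 36.2 CPM in Th1, Th17 and Tfh.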

How the data were processed

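Reads were aligned to mm10 and counted per gene by the authors, whose processing notes name STAR 2.7.2b and featureCounts 1.6.4, and the deposited values are raw counts for 27179 Entrez genes in 15 libraries, 5 for each of 3 conditions. The SENSE mRNA-Seq V2 kit with 100 ng of input RNA was used, per the labels' protocols. Annotation release, strandedness and handling of multi-mapped reads: not given in the sources used here. The deposited series table and the single-library tables hold the same counts, and no 2 replicates agreed within sampling noise (lowest chi-square per gene 9.40).

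Symbols were taken from RefSeq (GRCm38.p6) for 25275 identifiers. Genes with low counts were dropped by edgeR's filterByExpr, which left 12591. Conditions were compared with the quasi-likelihood test of edgeR 4.0.16 (R 4.3.3) with TMM factors, all 15 libraries and no covariates, and p-values were adjusted by Benjamini-Hochberg over all tested genes with a threshold of 0.05. Standard errors are the log2 difference divided by the square root of the F statistic. The script was tested on simulated data. Counts in genes set the depth, at which 3 counts equal 0.127 to 0.58 CPM. The p-values measure the spread between libraries, which may be technical. Alternatives were RLE or no scaling factors, no filter or a strict one (1 CPM in 5 libraries), DESeq2 1.42.0, limma-voom (limma 3.58.1), the replicate number as a term, only the 2 conditions compared, each library left out, and the longest transcript as length; a GC correction was added after seeing the data.

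The 10 members and the 7 lists of other purinergic genes were chosen with earlier results of these data known. From each list, the genes named are up to 2 for each direction and comparison with the largest log2 difference among those past the threshold whose libraries did not overlap, with a mean of at least 5 CPM in the higher condition; Gfi1 is named outside this rule, after its values were seen. A result that this rule picks is not reported here. The 5 genes nearest in pattern to Nt5e and Entpd1 were named from genes with a mean of at least 10 CPM in a condition, leaving out names ending in Rik or starting with Gm and digits.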

Additional observations from a re-analysis of the deposited data

Results flagged for a closer look

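Among the 30 groups formed by 10 members and 3 conditions, 2 held a library that stood far from the other 4, where chance alone marks about 1 in 20 groups. Nt5e in Tfh replicate 1 was the lowest of its condition at 983.2 CPM, against 1378 to 1495 CPM in the others, and the gap was 0.771 of the whole range. This library was also the shallowest. It still lay above every Th17 library, and without it the log2 difference of Nt5e was 0.91 for Tfh against Th17 and 7.39 for Tfh against Th1. Ada, the adenosine deaminase gene, in Th1 replicate 2 was the highest of its condition at 14.22 CPM, against 9.03 to 9.81 CPM in the others, and the gap was 0.849 of the range. Without it the log2 difference of Ada was -1.39 for Tfh against Th1 and -0.82 for Th17 against Th1, and the latter no longer passed.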

How the results depend on the processing

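Under the alternatives, 726 of the values of the members kept their direction and their side of the threshold, 6 changed sign, 6 came to pass and 12 no longer passed; for the other named genes 1124 were kept and 1 no longer passed. The sign changes were in Tfh against Th17 for P2rx4 and Slc29a1, whose differences were near 0: leaving out each library gave -0.091 to 0.194 for P2rx4 and -0.07 to 0.16 for Slc29a1, and the cause was not tested. The members that came to pass were all Adk in Th17 against Th1, with limma-voom, with the replicate block, with the GC correction, with both, and without Th1 replicate 1 or Th17 replicate 4. Genes called in Tfh against Th17 numbered 2113, and 3342 with the GC correction and 3948 with the GC correction and replicate block. Other purinergic genes called there numbered 11, and 17 with the replicate block, 18 with the GC correction and 21 with both, and the cause was not tested. The GC correction was fitted to deviations from the condition means in these same libraries, so its added calls are no independent support. Whether replicate numbers pair the libraries is unclear, and they were not treated as pairs: correlations of same-numbered deviations ran from -0.15 to 0.70, 8 of 15 pairs were above 0.1, among them all 3 pairs of replicate 2 and of replicate 4, and 7 of 15 libraries correlated best with their own number. The replicate block gave 2941, 6923 and 5487 called genes for Tfh against Th17, Tfh against Th1 and Th17 against Th1. DESeq2 called 2704, 6595 and 5033 and limma-voom 2194, 6420 and 5002. Per kb of the longest transcript, levels were 340.3 CPM for Nt5e, 42.72 for Acpp, 153.7 for Slc29a1 and 8.6 for Adk in Tfh, and 5.232 for Entpd1, 9.539 for P2rx4 and 25.75 for P2rx7 in Th1; the shorter length accounts for the higher values. In Tfh replicate 1, the shallowest library, Ada had 5 counts and Adora2b 0.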

Other observations

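Several purinergic genes below the level set for naming also differed between conditions, and were picked after their values were seen. Art2b, which encodes a surface ADP-ribosyltransferase that can activate P2X7 through NAD, averaged 0.0623 ± 0.0877 CPM in Th1, 0.973 ± 0.783 CPM in Th17 and 3.87 ± 2.97 CPM in Tfh (SD, n = 5 each). It was higher in Tfh than in Th1 by 5.52 ± 1.04 on the log2 scale (edgeR adjusted p = 0.000235), but the libraries overlapped. Th17 was above Th1 by 3.53 ± 1.05 (edgeR adjusted p = 0.0125), with no overlap. The difference of Tfh from Th17, 1.99 ± 0.81, did not pass (adjusted p = 0.104). Slc29a4, a nucleoside and monoamine transporter gene, averaged 0.421 CPM in Th1, 1.13 CPM in Th17 and 4.49 CPM in Tfh, and was higher in Tfh than in Th1 by 3.28 ± 0.93 (edgeR adjusted p = 0.00663). Adora3, the gene of an adenosine receptor that lowers cyclic AMP, averaged 2.17 ± 0.933 CPM in Th1, 0.112 ± 0.205 CPM in Th17 and 0.309 ± 0.692 CPM in Tfh (SD). It was lower in Th17 than in Th1 with no overlap of libraries (edgeR adjusted p = 0.00889). The Tfh level was also lower than Th1 (edgeR adjusted p = 0.0245), but the libraries overlapped. With Th17 and Tfh levels near 0, these fitted differences depend on the model. All 3 genes rest on 148 to 284 counts over the 15 libraries.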
